A study of Mus musculus with 6 samples.

Results

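Heparan sulfate proteoglycans and the enzymes that build, sulfate and trim their chains were described in 2 mouse mammary tumour cell lines, J110 and SSM3. The members were found by gene symbol, in a family chosen with earlier results of these data known. They comprised the numbered syndecans (Sdc) and glypicans (Gpc), the Ext, Extl, Ndst and Sulf genes, the 2-O, 3-O and 6-O sulfotransferases (Hs2st, Hs3st and Hs6st), and Glce, Hspg2, Hpse, Agrn, B3gat3, Xylt1 and Xylt2. This gave 39 of 52636 counted genes, 12 core proteins and 27 enzymes. Counts of 3′ ends of mRNA were available for 3 biological replicates of each line, and the question was how the lines differed in RNA level. The J110 line originates from mice with an AIB1 cDNA transgene, which the MMTV LTR, a promoter active in mammary epithelium, switches on. SSM3 cells came from mammary tumours of 129SvEv mice. Each is 1 cultured line, and no drug was compared. Both media contained serum, insulin and hydrocortisone. SSM3 cells were kept in more serum, with added L-glutamine, β-mercaptoethanol and holo-transferrin and at a higher CO2 level, so line, origin and culture cannot be told apart.

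Heparan sulfate is a long sugar chain attached to a small set of core proteins. Syndecans span the membrane, glypicans are tethered to its outer face by a lipid anchor, and agrin and perlecan are secreted into basement membranes. A short linker is built on the core protein, the EXT enzymes extend the chain, and sulfotransferases then add sulfate at defined positions. The sulfated stretches bind growth factors, Wnt ligands, chemokines and matrix proteins, and in the mammary gland they take part in growth factor signalling and branching. Extracellular sulfatases remove sulfate at the 6-O position and heparanase cuts the chain.

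The libraries labelled J110 held 5209740 to 5416305 counts and those labelled SSM3 held 4200785 to 4792941. A ribosomal RNA locus took 15.1% to 17.2% of the J110 counts and 0.779% to 1.27% of the SSM3 counts. Of the epithelial markers, the keratins Krt8 and Krt18 were abundant in both lines, while Epcam had 2, 1 and 7 counts in J110 against 2376, 2404 and 2412 in SSM3, and Cdh1 averaged 4.02 CPM in J110 against 1370 CPM in SSM3. CPM are counts relative to the library total, scaled with TMM factors. Summed over the list, the 5 epithelial markers ranged from 2680 to 2770 CPM in J110 and from 11900 to 13100 CPM in SSM3. Most of the SSM3 sum was Krt19, which averaged 18.6 CPM in J110 libraries against 7410 CPM, while Krt18 was lower in SSM3, at 970 against 1430 CPM. The 4 leukocyte markers summed to 14.8 to 22.2 CPM in J110 and 1.19 to 2 CPM in SSM3, mostly Cd68, with the defining marker Ptprc at 0 in every library but SSM3 replicate 2, which had 2 counts. The summed endothelial, fibroblast, erythroid and adipocyte markers were each at most 2.18 CPM in any library. Ncoa3, the mouse gene of AIB1, was not higher in J110, with 110, 106 and 102 counts against 181, 199 and 186 in SSM3. Whether reads of the transgene were counted there was not tested, and Ncoa3 shares 3′ exon with Sulf2, so this count does not check the labels. Directions below follow the labels of the libraries. In bulk samples, fewer cells of a type and less RNA per cell cannot be told apart.

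All counts refer to gene models in the mm10 build (GRCm38, GENCODE M21). Promoters are shown for 4 members that changed at least 2-fold, Sdc3 among those lower in SSM3 and Agrn, Hs6st1 and Sulf2 among those higher, to give the sequence upstream of the genes on which the results turn. They were limited to members whose RefSeq start lies within 20 bases of the GENCODE start and whose window holds no annotated exon. Each window is the 250 bases before the RefSeq start in GRCm38.p6, read 5′ to 3′ on the strand of the gene. The windows are chr4:130792287-130792536 (plus strand, Sdc3), chr4:156197489-156197738 (minus strand, Agrn), chr1:36068150-36068399 (plus strand, Hs6st1) and chr2:166155684-166155933 (minus strand, Sulf2). Capitals mark the GC box GGGCGG on either strand, written CCGCCC where it lies on the other one.
Sdc3: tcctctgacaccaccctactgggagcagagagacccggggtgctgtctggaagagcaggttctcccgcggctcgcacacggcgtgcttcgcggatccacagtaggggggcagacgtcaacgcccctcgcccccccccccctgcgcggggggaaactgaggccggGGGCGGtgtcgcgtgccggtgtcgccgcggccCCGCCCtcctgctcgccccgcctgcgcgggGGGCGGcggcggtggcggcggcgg
Agrn: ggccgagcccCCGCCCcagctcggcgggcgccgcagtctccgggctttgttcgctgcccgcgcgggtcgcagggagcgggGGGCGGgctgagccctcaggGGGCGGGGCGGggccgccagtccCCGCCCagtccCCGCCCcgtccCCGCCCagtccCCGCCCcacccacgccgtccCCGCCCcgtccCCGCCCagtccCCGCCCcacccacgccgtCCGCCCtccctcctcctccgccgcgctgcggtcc
Hs6st1: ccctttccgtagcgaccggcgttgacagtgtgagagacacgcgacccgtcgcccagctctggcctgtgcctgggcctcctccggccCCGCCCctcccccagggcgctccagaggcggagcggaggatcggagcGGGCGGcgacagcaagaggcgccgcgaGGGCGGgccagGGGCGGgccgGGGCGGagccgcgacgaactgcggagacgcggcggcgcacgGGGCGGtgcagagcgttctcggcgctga
Sulf2: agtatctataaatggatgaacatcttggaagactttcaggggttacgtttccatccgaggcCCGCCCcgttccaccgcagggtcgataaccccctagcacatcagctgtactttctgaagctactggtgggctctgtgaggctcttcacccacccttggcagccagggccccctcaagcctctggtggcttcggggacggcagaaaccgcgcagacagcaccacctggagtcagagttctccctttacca
The Agrn window held 12 GC boxes, some of them overlapping, and was 83.6% G or C. The windows of Hs6st1, Sdc3 and Sulf2 held 6, 3 and 1. Of 32817 promoter windows of this length in the RefSeq table, 32.7% held at least 1 GC box. The TATA box TATAAA was matched in the Sulf2 window alone of these 4 and in 12.4% of all windows. The E-box CACGTG was in none of the 4 and in 6.02% of all windows. Agrn and Sulf2 each have another RefSeq start, not shown because it lies farther from the GENCODE start. The window there held 2 GC boxes for Agrn, and 0 GC boxes and 0 TATA boxes for Sulf2. These matches describe the letters in the window and not sites in use. In the table, 29 of the 39 members had a promoter.

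Of the 39 members, 23 had enough counts to be tested, and 21 of these differed between the lines at an adjusted p below 0.05 (edgeR's quasi-likelihood test). Over all 12284 genes tested, 77.9% passed the same threshold, so that a call alone says little about a member. Higher in SSM3 were 11 members, against 38.6% of all genes, and lower were 10, against 39.2%. Changes of at least 4-fold were found for 8 members, 2 higher and 6 lower, where 21.7% of all genes tested were called with a change of that size. Of these 8, 6 were among the 9 core proteins tested and 2 were among the 14 enzymes tested. However, 6 of the 8 (Sdc2, Sdc3, Gpc4, Gpc6, Ndst3 and Sulf1) were at or near the floor in one line and entered the test only through the line where they were high, so nothing is read from this tally. The other two were Sdc1 and Hspg2. The signed median was 0.03 over the 23 members and -0.01 over all genes, and the member median stayed the same with genes at the floor set to their bound. The libraries of the lines did not overlap for 21 of the 23 members, beside 79.6% of all genes. As a group the 39 members took 0.117% to 0.122% of all counts in J110 and 0.121% to 0.125% in SSM3. The plot of CPM by library shows each of the tested members.

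**Figure D1:**
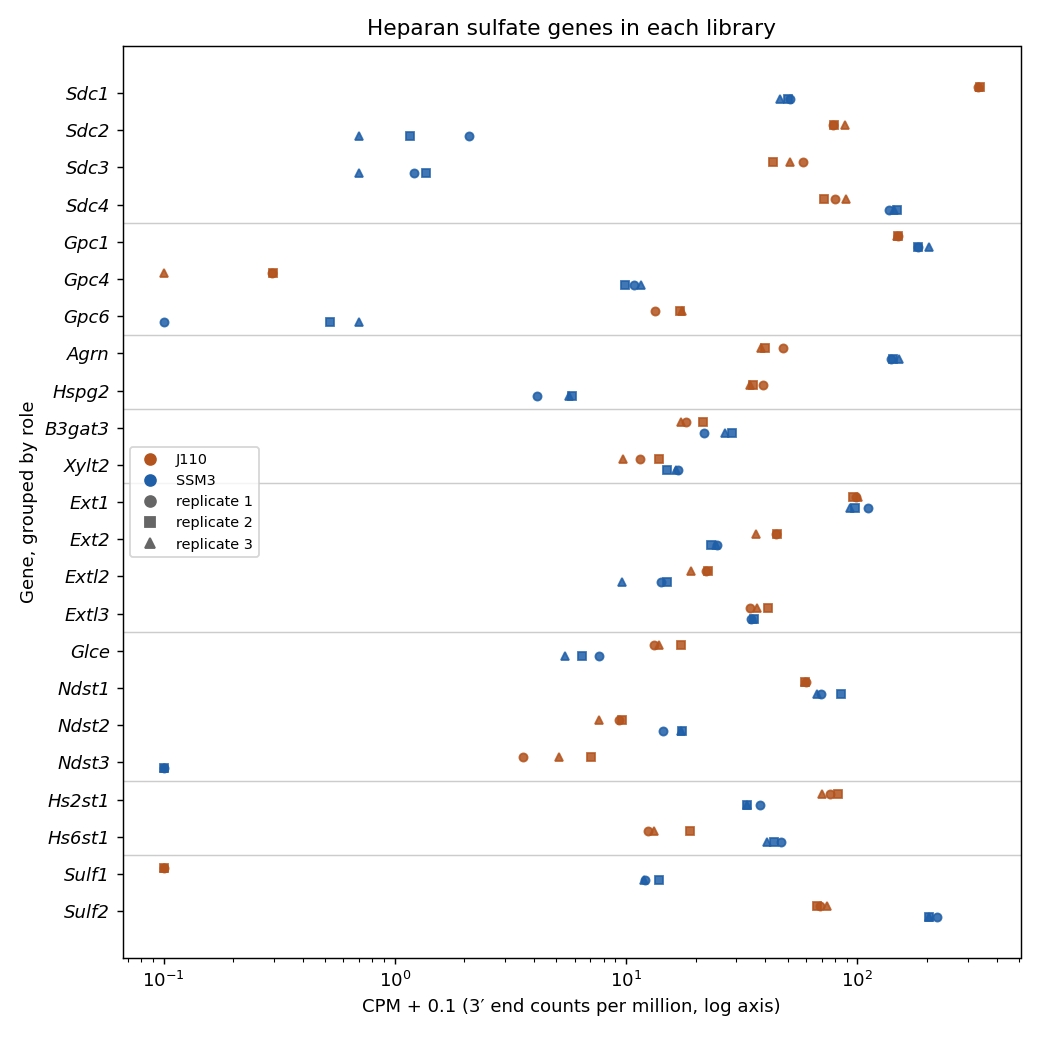
Levels of the 23 tested members in each of the 6 libraries, grouped by role, as CPM on a log axis after adding 0.1. Each point is a library of J110 or SSM3. Sdc2, Sdc3 and Gpc6 lie far to the left in SSM3, Gpc4 and Sulf1 far to the left in J110, and Ext1 and Extl3 overlap between the lines.

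Of the 4 syndecans, 3 were lower in SSM3 and 1 was higher, and Sdc2 and Sdc3 were reduced to about the floor of counting. Sdc1 (chr12:8771323-8793715, plus strand), the main syndecan of epithelial cells, had 1729, 1711 and 1615 counts in J110 and 230, 236 and 232 in SSM3. Its level was 336 ± 2.63 CPM (SD, n = 3) in J110 and 49.2 ± 2.66 CPM in SSM3, a log2 fold change of -2.77 (SE 0.080, adjusted p = 1.47e-14). Every SSM3 library was well below every J110 library, at 14.6% of the J110 mean. Sdc2 (chr15:32920723-33034935, plus strand), best known from mesenchymal and neural cells, had 405, 401 and 423 counts in J110 and 9, 5 and 3 in SSM3. Its mean fell from 81.9 ± 5.56 to 1.22 ± 0.717 CPM, to 1.49% of the J110 mean, with a log2 fold change of -6.07 (SE 0.20, adjusted p = 9.72e-14). Sdc2 was thus close to the floor of counting in SSM3, where 3 counts correspond to 0.597 to 0.668 CPM.

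Sdc3 (chr4:130792537-130826319, plus strand), whose protein is prominent in the nervous system, had 301, 218 and 244 counts in J110 and 5, 6 and 3 in SSM3. This was 50.7 ± 7.46 against 0.995 ± 0.354 CPM, a log2 fold change of -5.65 (SE 0.24, adjusted p = 2.07e-12). An antisense gene, Gm26716, lies wholly on exons of Sdc3 near its 3′ end and had 298, 208 and 242 counts in J110 and 4, 6 and 3 in SSM3. Whether counting used the strand is not given in the sources used here, so Sdc3 and Gm26716 cannot be told apart. Sdc4 (chr2:164424247-164443887, minus strand), the syndecan of focal adhesions, went the other way, with 414, 363 and 426 counts in J110 and 616, 701 and 726 in SSM3. Its mean rose from 80.2 ± 8.55 to 143 ± 5.91 CPM, a log2 fold change of 0.84 (SE 0.091, adjusted p = 3.04e-07). The lowest SSM3 library of Sdc4 was above the highest J110 library.

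Among the 6 glypicans, 3 were tested and each was called, with Gpc4 above the floor in SSM3 alone and Gpc6 in J110 alone. Gpc4 (minus strand, chrX:52053021-52165252) had 1, 1 and 0 counts in J110 and 48, 46 and 58 in SSM3, or 10.7 ± 0.886 CPM. Against a floor of 3 counts per library Gpc4 was at least 17.8-fold higher there (adjusted p = 2.72e-09). Gpc6 (chr14:116925315-117976544, plus strand) showed the opposite pattern, with 69, 86 and 83 counts in J110, or 15.9 ± 2.24 CPM, and 0, 2 and 3 in SSM3. Measured against the same floor it was at least 25.0-fold lower in SSM3 (adjusted p = 2.58e-09), a log2 bound of -4.64. The 95% limits of its log2 fold change, -6.24 to -4.55, reach slightly nearer 0 than this bound, which covers counting error only. Gpc4 and Gpc6 were thus each detected above the floor in one line and not in the other. Gpc2, Gpc3 and Gpc5 had at most 4 counts in any library and were not tested.

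Gpc1 (chr1:92831645-92860779, plus strand), the glypican best known from breast and pancreatic cancer, had 779, 759 and 715 counts in J110 and 819, 861 and 1025 in SSM3. Its difference was small, 150 ± 0.548 against 190 ± 12.3 CPM, a log2 fold change of 0.34 (SE 0.076, adjusted p = 6.63e-04). The last 977 exonic bases of Gpc1 are also exon of Ankmy1 on the opposite strand, at chr1:92859803-92860779, where both genes end. Ankmy1 had 771, 754 and 712 counts in J110 and 813, 853 and 1014 in SSM3, 98.9% to 99.6% of the Gpc1 count in each library. The value of Gpc1 can therefore not be told apart from that of Ankmy1.

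The secreted core proteins moved in opposite directions. Agrn (agrin; chr4:156165290-156197488, minus strand), which organises the neuromuscular junction and is a basement membrane component elsewhere, had 247, 200 and 183 counts in J110 and 630, 673 and 759 in SSM3. Its mean rose from 41.8 ± 5.10 to 145 ± 5.60 CPM, a log2 fold change of 1.79 (SE 0.097, adjusted p = 4.70e-11). Hspg2 (perlecan; chr4:137468769-137570630, plus strand), the large proteoglycan of basement membranes, had 202, 178 and 165 counts in J110 and 18, 27 and 28 in SSM3. Here the mean fell from 36.2 ± 2.41 to 5.10 ± 0.953 CPM, a log2 fold change of -2.81 (SE 0.17, adjusted p = 2.01e-10). Neither gene overlapped between the lines and neither shares an annotated exon with another gene.

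**Figure D2:**
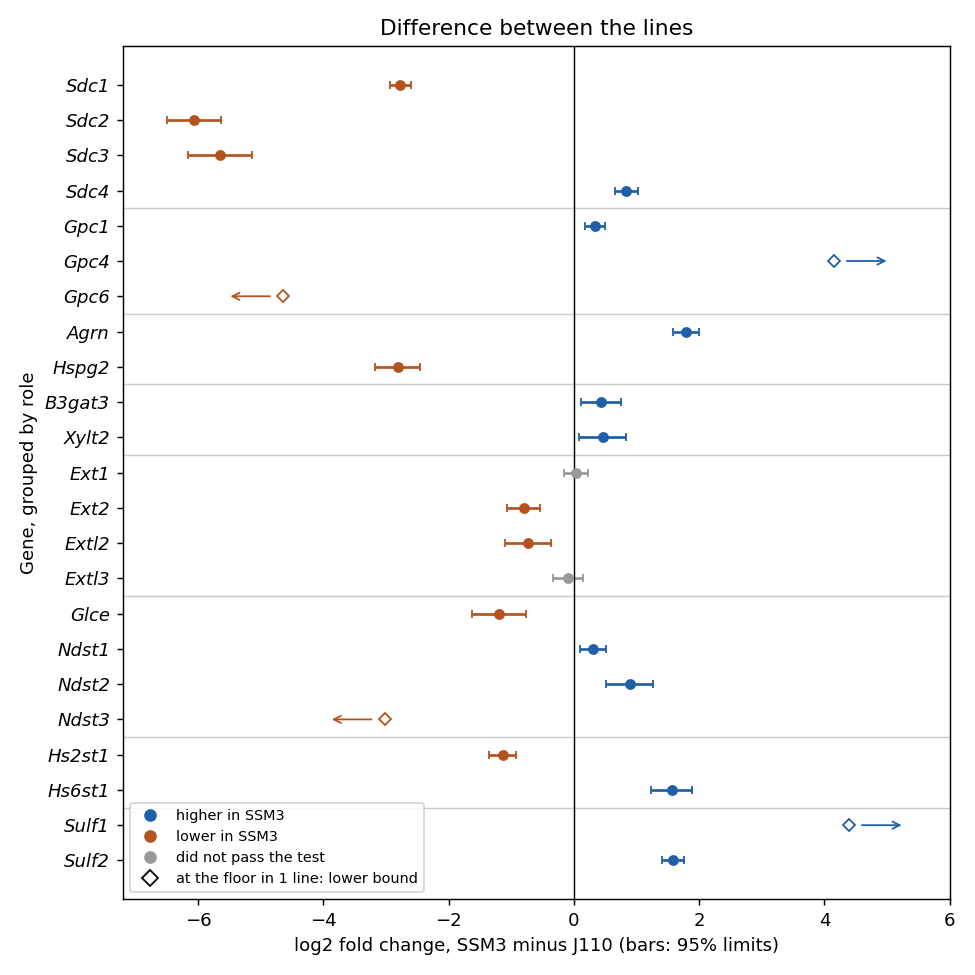
Log2 fold change of each tested member, SSM3 minus J110, grouped by role, with 95% limits as bars. Open diamonds are the lower bounds, against 3 counts per library, of members at 3 counts or fewer in every library of a line. Arrows give the direction of the change. The enzymes Ndst3 and Sulf1 and the glypicans Gpc4 and Gpc6 are drawn at a bound, each more than 2 log2 units from 0. Of the others, Sdc1, Sdc2, Sdc3 and Hspg2 lie beyond 2 units on the left, but Sdc2 and Sdc3 were near the floor in SSM3.

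The linker enzymes B3gat3 and Xylt2 were slightly higher in SSM3. B3gat3, which adds the last sugar of the linker, had 94, 108 and 82 counts in J110 and 97, 135 and 134 in SSM3, a log2 fold change of 0.44 (SE 0.15, adjusted p = 0.0135). Xylt2, one of the xylosyltransferases that attach the first sugar to the core protein, had 59, 70 and 46 counts in J110 and 75, 70 and 82 in SSM3. Its log2 fold change was 0.46 (SE 0.17, adjusted p = 0.0257). These were among the smallest changes called. B3gat3 missed the threshold without J110 replicate 1 (adjusted p = 0.0532), without J110 replicate 3 (0.0656) and without SSM3 replicate 2 (0.0679). Likewise Xylt2 missed it without J110 replicate 1 (adjusted p = 0.0733), without J110 replicate 3 (0.120) and without SSM3 replicate 1 (0.0597). The adjusted p of the fits leaving out 1 library ranged from 0.0038 to 0.0679 for B3gat3 and from 0.0134 to 0.120 for Xylt2. Xylt1, the other xylosyltransferase, had 1 count in all and was not tested.

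Of the 4 Ext and Extl genes tested, 2 were lower in SSM3 and 2 did not pass the test. Ext1 and Ext2 form the heparan sulfate polymerase. Ext1 had 510, 484 and 484 counts in J110 and 497, 459 and 469 in SSM3, a log2 fold change of 0.03 (95% limits -0.16 to 0.22, adjusted p = 0.761). Its libraries overlapped between the lines. Ext2 had 231, 226 and 175 counts in J110 and 111, 109 and 122 in SSM3, which gave a log2 fold change of -0.80 (SE 0.12, adjusted p = 1.64e-05). The subunits of one complex therefore differed in their call, though the difference between the 2 changes was not tested.

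Extl2 and Extl3 are glycosyltransferases related to the EXT enzymes, and Extl3 adds the first N-acetylglucosamine that commits the chain to heparan sulfate. Extl2 had 114, 113 and 91 counts in J110 and 63, 70 and 48 in SSM3, a log2 fold change of -0.73 (SE 0.17, adjusted p = 0.00120). Extl3 had 178, 208 and 177 counts in J110 and 156, 167 and 178 in SSM3, a log2 fold change of -0.09 (95% limits -0.33 to 0.15, adjusted p = 0.474). The limits of Ext1 and Extl3 both exclude a 2-fold difference. Extl1 had at most 4 counts in any library.

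The modifying enzymes that act first on the chain changed in both directions, with 2 higher and 2 lower. Ndst1 and Ndst2 remove acetyl groups from the chain and put sulfate in their place. Ndst1 had 310, 299 and 284 counts in J110 and 312, 399 and 336 in SSM3, a log2 fold change of 0.31 (SE 0.10, adjusted p = 0.00955). Without SSM3 replicate 2, its highest library, the log2 fold change was 0.20 and the call was lost (adjusted p = 0.0710, with a range of 0.00191 to 0.0710 over the fits leaving out 1 library). Ndst2 had 48, 48 and 36 counts in J110 and 64, 82 and 86 in SSM3, a log2 fold change of 0.89 (SE 0.18, adjusted p = 2.67e-04). Ndst3, of the same family, had 18, 35 and 24 counts in J110 and 0 in every SSM3 library, and was at least 8.10-fold lower there (adjusted p = 1.23e-06). No library had a count of Ndst4.

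Glce, the epimerase that turns glucuronic into iduronic acid, had 68, 87 and 66 counts in J110 and 34, 30 and 27 in SSM3. Its log2 fold change was -1.19 (SE 0.21, adjusted p = 5.87e-05). Hs2st1, the heparan sulfate 2-O sulfotransferase, which acts largely on iduronic acid, had 393, 418 and 338 counts in J110 and 170, 157 and 167 in SSM3. The mean of Hs2st1 fell from 76.3 ± 6.09 to 34.8 ± 2.64 CPM, a log2 fold change of -1.13 (SE 0.10, adjusted p = 2.56e-08). Glce and Hs2st1, which work in succession, were both lower in SSM3 without overlap between the lines. Over all genes tested, 39.2% were lower and 79.6% did not overlap, so this says little about the pair. Glce shares 77 exonic bases with Mir5133, which had no counts.

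Of the genes that set 6-O sulfation, both extracellular sulfatases, Sulf1 and Sulf2, were higher in SSM3, as was the count of the transferase Hs6st1, which is shared with an antisense gene. Over all genes tested, 38.6% were higher. Because Sulf1 was tested only through SSM3, nothing is read from these genes as a group. Hs6st1 (plus strand, chr1:36068400-36106446) had 64, 95 and 63 counts in J110 and 209, 205 and 204 in SSM3. Its mean rose from 14.8 ± 3.51 to 43.6 ± 2.97 CPM, a log2 fold change of 1.56 (SE 0.15, adjusted p = 9.05e-08). The antisense gene Gm37335 lies wholly within exons of Hs6st1 at its 3′ end and had 98.4% to 98.9% of the Hs6st1 count in each library, so these genes cannot be told apart. Hs6st2 and Hs6st3 had no counts.

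Sulf1 (plus strand, chr1:12692277-12861192) had 0 counts in all J110 libraries and 54, 65 and 60 in SSM3, or 12.6 ± 1.05 CPM. Sulf1 was at least 21.0-fold higher there (adjusted p = 3.34e-09). Sulf2 (chr2:166073089-166155663, minus strand) was detected in both lines, with 356, 337 and 355 counts in J110 and 991, 960 and 1021 in SSM3. Its mean rose from 69.8 ± 3.84 to 209 ± 9.91 CPM, a log2 fold change of 1.58 (SE 0.082, adjusted p = 2.78e-11). So Sulf1 was detected in SSM3 alone, and Sulf2 was about 3-fold higher there.

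Sulf2 and Ncoa3 lie on opposite strands of chromosome 2, and their last 154 exonic bases coincide at chr2:166073089-166073242. Ncoa3 had 18.2% to 31.5% of the Sulf2 count. Its own log2 fold change was 0.91 (SE 0.12, adjusted p = 2.94e-06). If every Ncoa3 count were also a Sulf2 count, subtracting them would leave Sulf2 246, 231 and 253 counts in J110 and 810, 761 and 835 in SSM3, with means of 48.6 and 169 CPM. The direction of Sulf2 is the same after this subtraction, with no overlap between the lines. How much of the Ncoa3 count comes from Sulf2 transcripts was not tested. The plot of paired counts sets these members beside the genes they share exons with.

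**Figure D3:**
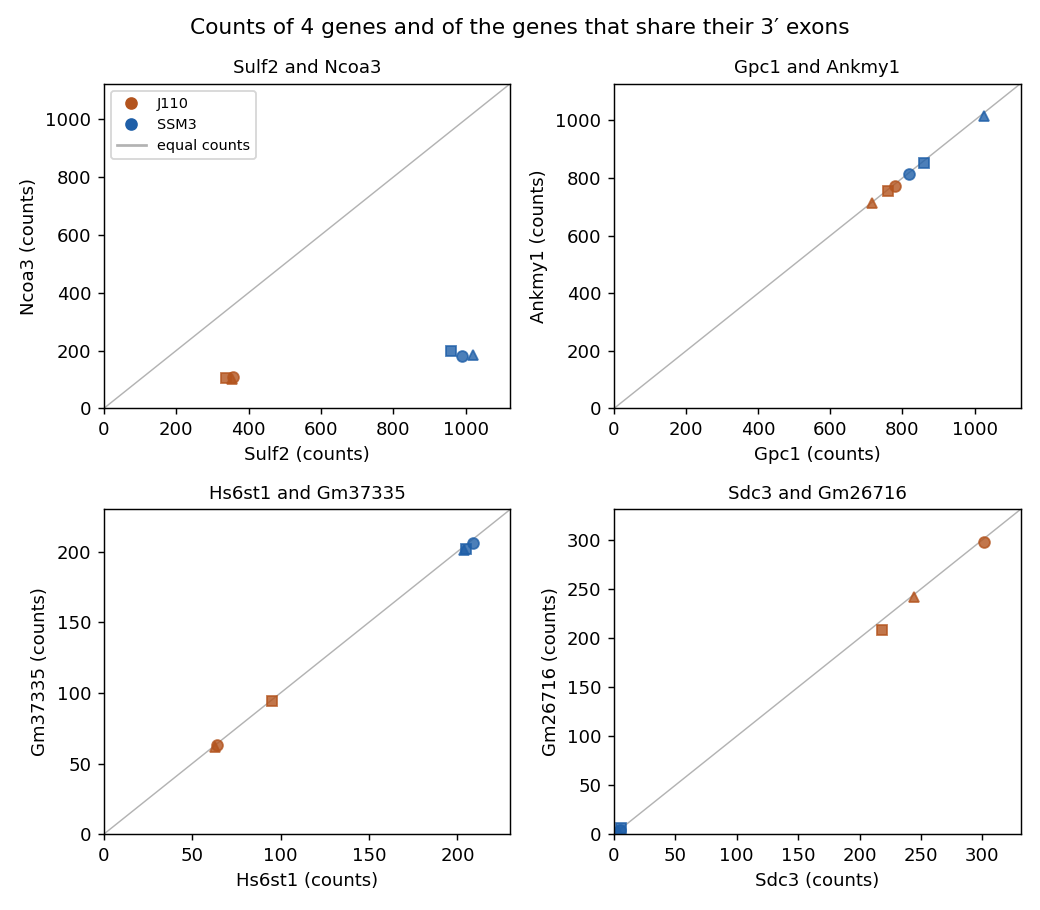
Counts of 4 members against those of the gene that shares their 3′ exons, per library, in J110 and SSM3. The libraries of Gpc1 with Ankmy1, of Hs6st1 with Gm37335 and of Sdc3 with Gm26716 lie along the line of equal counts, while those of Sulf2 with Ncoa3 lie well off it.

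In all, 10 members share annotated exon with another gene, of which 5 were tested and 5 called. Of the 29 that share none, 18 were tested and 16 called, 8 in each direction. Over all genes tested, 77.9% were called. When genes that share exons were left out, 78.9% of 7395 were called, so these counts say little about the members. Among those tested, Gpc1, Hs6st1, Sdc3 and Sulf2 had a partner with counts.

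None of the 7 3-O sulfotransferases, which add the rarest modification, had enough counts to be tested, and their highest count was 11. Hs3st1 had 6, 5 and 11 counts in J110 and 0 in every SSM3 library, Hs3st3a1 had 2, 6 and 3 against 0, and Hs3st5 had 2, 0 and 4 against 0. In the other direction, Hs3st6 had 1, 0 and 0 counts in J110 and 6, 7 and 4 in SSM3. Heparanase, Hpse, had 8, 2 and 4 counts in J110 and 0 in SSM3. Against the floor of 3 counts per library the ratio of means was at least 2.33-fold lower in SSM3 for Hs3st1, at least 1.16-fold lower for Hs3st3a1, at least 1.46-fold lower for Hpse and at least 2.01-fold higher for Hs3st6. The bounds of Hpse and Hs3st3a1 rest largely on 1 library each. Their J110 values were 1.54, 0.396 and 0.835 CPM for Hpse and 0.386, 1.19 and 0.626 CPM for Hs3st3a1. Hs3st3b1 had 1 count and Hs3st2 and Hs3st4 had none.

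With every gene tested that had at least 1 count in any library, 22592 genes in all and 49.2% of them called, 4 of these low members passed the threshold. They were Hs3st1 (adjusted p = 1.89e-05), Hs3st3a1 (0.00528) and Hpse (0.00119), lower in SSM3, and Hs3st6 (0.00115), higher. Hs3st5 and Gpc3 did not pass (adjusted p = 0.0566 and 0.0721). Extl1, Gpc3 and Hs3st5 reached 4 counts in a single library, and the other low members that did not pass had at most 1 count in any. At these depths this is not evidence of absence. Of the 16 members not tested, 11 had some counts and 5 had none.

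Other genes of the pathway were described in 5 lists with 50 genes, of which 35 were tested, 30 called, 7 higher and 23 lower in SSM3. The share called, 85.7%, is to be read beside the 77.9% of all genes called, with 38.6% higher and 39.2% lower. The first list holds other proteins that can carry heparan sulfate, with the heparanase relative Hpse2. It had 4 of 10 genes tested, and these 4 were lower. Since Col18a1, Nrp1 and Tgfbr3 were at or near the floor in SSM3, they entered the test only through J110, and nothing is read from this tally. Srgn, or serglycin, had too few counts to be tested and went the other way, with 0 in every J110 library and 18, 5 and 10 in SSM3. Its mean was at least 3.93-fold higher, with the SSM3 libraries at 4.01, 1.06 and 1.99 CPM, so the size leans on replicate 1. Col18a1, the collagen from which endostatin is cut, had 1912, 1771 and 1659 counts in J110 and 2, 6 and 0 in SSM3, a log2 fold change of -9.24 (SE 0.21, adjusted p = 1.14e-15). With so few SSM3 counts its size depended on single libraries, at -10.55 without SSM3 replicate 2 and -8.63 without SSM3 replicate 3. Cd44, a receptor for hyaluronan, had 3703, 3417 and 3778 counts in J110 and 58, 51 and 63 in SSM3, a log2 fold change of -5.90 (SE 0.11, adjusted p = 9.35e-17). Nrp1, a coreceptor for semaphorins and VEGF, had 203, 206 and 161 counts in J110 and 1 in each SSM3 library, and was at least 59.7-fold lower (adjusted p = 9.13e-13). Cd44 was the only one of the tested carriers counted well above the floor in both lines.

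Genes that supply the linker and the sugar and sulfate donors moved both ways: of 12, 11 were tested, with 3 higher and 5 lower. Ugdh, which makes the UDP-glucuronic acid that every chain needs, had 744, 727 and 682 counts in J110 and 67, 66 and 74 in SSM3, a log2 fold change of -3.30 (SE 0.097, adjusted p = 1.97e-14). Papss1, which makes the sulfate donor PAPS, had 301, 330 and 265 counts in J110 and 1087, 1085 and 1181 in SSM3, a log2 fold change of 1.98 (SE 0.085, adjusted p = 2.22e-12). Ugdh and Papss1 thus differed in opposite directions. Pxylp1, the phosphatase that acts on the xylose of the linker, rose by 1.62 on the log2 scale (SE 0.11, adjusted p = 1.27e-09), and Slc35b2, which carries PAPS into the Golgi, by 0.45 (SE 0.12, adjusted p = 0.00255). The other sulfate supply genes did not pass or were not tested. Slc35b3, also a PAPS transporter, was at -0.42 (adjusted p = 0.0597) and passed with upper quartile scaling, with at least 10 counts in every library and, at -0.60, without SSM3 replicate 2. The sulfate transporter Slc26a2 was at -0.08 (adjusted p = 0.5), and Papss2 had 14, 5 and 4 counts in J110 and 4, 3 and 3 in SSM3. Lower in SSM3 were the linker enzymes B4galt7 at -0.79 (SE 0.12, adjusted p = 1.01e-05), B3galt6 at -0.89 (SE 0.21, adjusted p = 9.06e-04) and Fam20b, the xylose kinase, at -0.71 (SE 0.26, adjusted p = 0.0212), which are named after their values were seen because they differ in direction from B3gat3 and Xylt2. Fam20b had 337, 261 and 237 counts in J110 and 212, 195 and 69 in SSM3, and was at -0.32 without SSM3 replicate 3. It lost its call without J110 replicate 1 (adjusted p = 0.105), with DESeq2 (0.210) and with library size only (0.0847). It shares exon with Gm19918, which had 286, 221 and 209 counts in J110 and 179, 159 and 48 in SSM3. The list median was -0.42.

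The chondroitin and dermatan sulfate branch uses the same linker. Of its 16 genes, 10 were tested, 9 were lower in SSM3 and 1 was higher, with a median log2 fold change of -2.28. Of the 9, Dse, Csgalnact1 and Chst11 were at the floor in SSM3 and were tested only through J110, so the tally and the median are not read as a property of the list. Dse, which makes dermatan sulfate, had 161, 189 and 155 counts in J110 and 0 in every SSM3 library, at least 53.0-fold lower there (adjusted p = 2.75e-11). Csgalnact1, which starts the chondroitin chain, had 86, 81 and 96 counts in J110 and 0 in SSM3, at least 27.7-fold lower (adjusted p = 1.07e-09). Chst11, a chondroitin 4-O sulfotransferase, had 97, 105 and 96 counts in J110 and 0, 0 and 2 in SSM3, at least 31.3-fold lower (adjusted p = 2.35e-10). The exception was Chpf, a chondroitin polymerising factor, at 0.34 (SE 0.11, adjusted p = 0.0118), a call that was lost without J110 replicate 3 (adjusted p = 0.0536, with a range of 0.0144 to 0.0536 over the fits leaving out 1 library) and when libraries were thinned to equal totals (0.26, adjusted p = 0.0556). Chpf2, one of the 9 lower genes, shares 2466 exonic bases with Smarcd3 on the opposite strand. Chpf2 had 200, 186 and 138 counts in J110 and 31, 42 and 36 in SSM3, beside 216, 207 and 145 and 27, 39 and 34 for Smarcd3, so these genes cannot be told apart.

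Of 7 lysosomal enzymes that degrade heparan sulfate, 6 were tested, with 2 higher, 3 lower and a median of -0.25. Gusb had 281, 294 and 250 counts in J110 and 26, 37 and 23 in SSM3, a log2 fold change of -3.17 (SE 0.16, adjusted p = 2.57e-11). Ids, iduronate sulfatase, had a log2 fold change of -1.18 (SE 0.11, adjusted p = 7.65e-08). Hgsnat, an acetyltransferase, and Idua, the iduronidase, were higher by 0.80 (SE 0.13, adjusted p = 2.26e-05) and 1.02 (SE 0.31, adjusted p = 0.00609). Of 5 partners of syndecans and glypicans, 4 were tested, with 1 higher, 2 lower and a median of -0.02. Tiam1, a Rac activator, had 106, 113 and 114 counts in J110 and 1, 1 and 0 in SSM3, at least 35.0-fold lower (adjusted p = 4.22e-11). Gipc1, an adaptor that binds syndecan tails, rose by 2.01 (SE 0.14, adjusted p = 8.77e-10), and Sdcbp, or syntenin, was at -0.25 (SE 0.078, adjusted p = 0.00798). With library size only, Sdcbp was at -0.07 and the call was lost (adjusted p = 0.417). Idua shares exon with Dgkq and Sdcbp with Nsmaf on the opposite strand, so counts of these pairs may overlap. Sgsh, which did not pass the test, shares 955 exonic bases with Card14 on the opposite strand. Sgsh had 47, 33 and 52 counts in J110 and 48, 51 and 41 in SSM3, beside 26, 11 and 23 and 0 in every SSM3 library for Card14. Its value in J110 may therefore include Card14 reads.

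**Figure D4:**
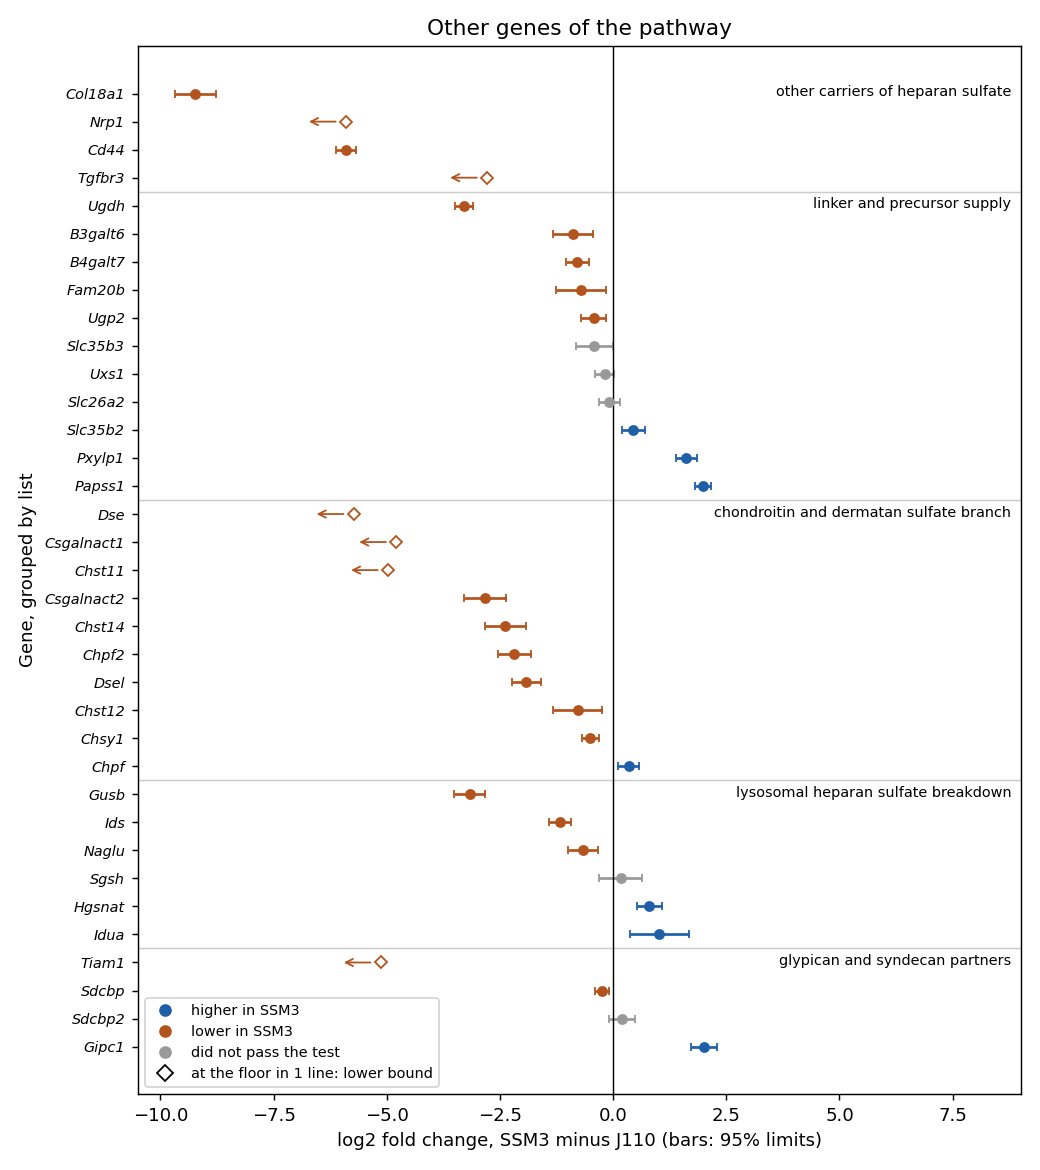
Log2 fold change of the 35 tested genes of the 5 related lists, SSM3 minus J110, with 95% limits as bars. Open diamonds with arrows are lower bounds for genes at 3 counts or fewer in every library of a line. All 4 carriers and 9 of 10 chondroitin and dermatan sulfate genes lie left of 0, but genes drawn at a bound, and Col18a1, were tested only through the line where they were high.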

How the data were processed

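RNA of 3 biological replicates of each cell line was sequenced from its 3′ ends (QuantSeq). The authors trimmed reads, aligned them to mm10 and deposited raw counts per gene with no normalisation. Per the submitters' processing notes, HISAT2 2.0.4, featureCounts of Subread 2.0.0 and cutadapt 2.1 were among the tools. The strand setting and the handling of reads overlapping several genes were not given in the sources used here.

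For the whole table, filterByExpr removed low genes, TMM set the scaling, and the lines were compared by edgeR 4.0.16 with its quasi-likelihood test (R 4.3.3, limma 3.58.1), with Benjamini-Hochberg adjustment over 12284 genes and a threshold of 0.05. Fold changes are SSM3 over J110 and standard errors are the log2 fold change over the square root of F. Members at 3 counts or fewer in every library of a line were given as bounds against 3 counts per library, which covers counting error only. A 3′ count does not scale with length, and levels were not compared between genes. The test was checked on simulated counts. Exon overlaps were found with bedtools 2.31.1, and 52489 (99.7%) of the gene identifiers matched the annotation. Libraries of a line differed by more than sampling noise, so none was counted as a copy. P-values measure the spread between replicates.

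The members and lists were chosen with earlier results of these data known. A gene of 1 list and a detail of the SSM3 donors are not reported here. Every member was accounted for. In the related lists, the 3 called genes with the largest changes at a mean of at least 10 CPM in a line were named, with any that went against most of their list. Alternatives were other scalings, filters, tests (DESeq2 1.42.0, limma-voom) and thresholds, thinning, leaving out genes that share exons, a replicate block and leaving out each library.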

Additional observations from a re-analysis of the deposited data

How the results depend on the processing

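Each of 19 alternatives was compared with the values above. For the members, 401 of 425 comparisons kept direction and side of the threshold, 20 lost a call, 1 gained one and 3 turned. Asking for a change beyond 2-fold (glmTreat) left 11 members called, 5 higher and 6 lower, and 17 related genes, 3 higher and 14 lower. It also left 4272 of all genes called, against 9566. At least 10 counts in every library, which removes genes low or absent in a line, left 17 members tested and 15 called. Of these, 9 were higher and 6 lower, beside 75.2% of 9686 genes called. Without genes that share exons, 14 related genes were lower, beside 78.9% of 7395 genes called in either direction. Lower genes that share exon, such as Chpf2, Nrp1 and Ugdh, were removed from that fit, so this is no count of lost calls. Values that turned belonged to genes that did not pass the test. With upper quartile scaling Ext1 was at 0.00, and without 1 library it ranged from -0.04 to 0.08. With library size only, Extl3 and Slc26a2 were each at 0.09, where the median of all genes moved from -0.014 to 0.16, and Ext1 passed at 0.21 (adjusted p = 0.0445). Sgsh ranged from -0.02 to 0.33 without 1 library. Xylt2 lost its call with DESeq2 (adjusted p = 0.0782). Without 1 library, 19 to 21 members were called, beside 74.4% to 76.2% of all genes. The cause of these changes was not tested.

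Same-numbered replicates were not shown to be paired: their deviations correlated at 0.0118, 0.0155 and 0.0268. With a replicate block, 21 members were called, 11 higher and 10 lower, all 21 of them shared with the fit without it, 30 related genes were called, and 9481 of all genes. A count of 3, the floor used for bounds, was 0.578 to 0.668 CPM.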
